A study of Mus musculus with 622 samples.

Results

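Fam151a, Prss53, Papss2, Spc25, Ociad2, Dapl1, Adh1 and Car15 are 8 genes, of 44448 in the table, whose place in beta cells is little described. Their mean RNA over all cells was higher in insulin cells than in each other hormone group of the mouse pancreatic islet. For Spc25 against glucagon cells and Adh1 against pancreatic polypeptide cells the margin was small and reversed in part of the columns. The 8 were picked from these same expression values, so their enrichment in insulin cells chose them and is given below as a description, with no test. RNA was measured in 622 single islet cells of wild-type C57BL/6 mice, each of which was lysed and its cDNA amplified in a separate chamber of the Fluidigm C1 microfluidic system. The labels give no treatment, age, sex, animal or chip, so all cells count as 1 sample and no value below carries a replicate error.

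Cells were grouped by hormone RNA. The filter of 1000 genes at 1 RPKM (reads per length of the gene, scaled to each cell's mapped total) kept 593 of the 622. A cell was assigned to insulin, glucagon, somatostatin or pancreatic polypeptide (PP) where that hormone held at least 90% of the summed RPKM of Ins1, Ins2, Gcg, Sst and Ppy. This gave 395 insulin cells, 33 glucagon cells, 13 somatostatin cells and 11 PP cells. In another 126 cells, called dual, a second hormone made up 10% or more of the sum, and 15 held neither a leading hormone at 90% nor a second at 10%. The insulin cell nearest to the threshold had an insulin share of 90.0% and the nearest cell outside it 89.7%, and 13 insulin cells lay under 95%. All 8 beta cell markers (Ins1, Ins2, Iapp, Nkx6-1, Pdx1, Slc2a2, Ucn3 and G6pc2) reached 1 RPKM in at least 50% of insulin cells. Ins1 and Ins2 set this group, and 4 of the 8 also passed in glucagon, in somatostatin and in PP cells. Of the other hormone cell markers, 3 of 7 for alpha (glucagon), 1 of 5 for delta (somatostatin) and 2 of 4 for PP cells did so in insulin cells. None of the listed markers of acinar, immune, endothelial or stellate cells did so, and of 6 ductal markers 1 did. The summed immune, stellate, endothelial and glial markers reached 1000 RPKM in 15 insulin cells, 1 glucagon cell, 1 somatostatin cell and 3 of the 11 PP cells.

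Depth and column format bear on every value. The median depth over all 622 cells was 1119227 recovered reads, the lowest 2461, in a cell that failed the filter, and the highest 6111828. The lowest depth was 135830 reads among insulin cells and 186797 among glucagon cells. The table wrote 359 columns at full precision and rounded 263 to 4 decimals, and these column sets, which the labels do not explain, had median depths of 811202 and 1607351 reads and medians of 5754 and 4124 genes at 1 RPKM. Values within each set are given below for part of the shares, AUCs and ratios. At the median depth 1 read equalled from 0.230 RPKM for Papss2, the longest of the 8 transcripts, to 1.56 RPKM for Dapl1, the shortest. Among all pairs of cells, 5 pairs were near-identical, with Pearson correlations of log2 values from 0.894 to 0.983, against a median of 0.574 over all pairs. They comprised 8 insulin cells and 1 pair of insulin-glucagon dual cells. Whether 1 cell was sequenced again in each pair is not stated, and without the second cell no share moved beyond its counting interval and no classifier count changed.

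Beta cells make, fold and store insulin and release it in response to glucose. The genes that set them apart from the other islet cells are mostly known for that task, as are the hormone genes, the glucose transporter Slc2a2 and the convertase Pcsk1. The 8 genes here come from other fields. Fam151a encodes a membrane protein of little-known function. Prss53 encodes a trypsin-like serine protease. Papss2 makes the activated sulfate that sulfotransferases attach to proteins, sugars and steroids. Spc25 is a subunit of the NDC80 complex, which ties chromosomes to spindle microtubules in dividing cells. Ociad2 carries an OCIA domain and its product has been placed in mitochondria. Dapl1 encodes a small relative of the death-associated protein Dap. Adh1 is the class I alcohol dehydrogenase, which oxidises ethanol and retinol. Car15 is a membrane-anchored carbonic anhydrase of the mouse whose human counterpart is a pseudogene.

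The genes lie on 7 chromosomes (GRCm38). Spc25 (chr2:69193895-69206213) and Dapl1 (chr2:59484653-59505020) share chromosome 2. The others are Fam151a (chr4:106733915-106748292), Prss53 (chr7:127885444-127892965), Papss2 (chr19:32595669-32667187), Ociad2 (chr5:73322198-73338947), Adh1 (chr3:138277585-138290698) and Car15 (chr16:17835276-17838186). Promoter windows of RefSeq (GRCm38.p6), from 250 bases before to 50 bases after an annotated start, were found for all 8, with a pair of windows for Papss2. They were searched on both strands for letters bound by islet factors. TGCTGA, the core of Maf factor sites, occurred in the windows of Spc25, Dapl1 and Car15 and in 19.5% of all 32851 windows. CANNTG, the general E-box, occurred in 6 of the 9 windows and in 72.3% of all, and CAGATG, an E-box form that overlaps it, only in that of Fam151a among the 9 (17.2% of all). TAATTA, a homeodomain core, occurred in the window of Prss53 (5.29% of all), GTTGCC, an RFX half-site, in the second window of Papss2 (12.5%), and TATAAA in those of Ociad2 and Dapl1 (13.6%). GTTAAT, an HNF1 half-site, was in none of the 9 windows and in 7.10% of all. A match is a description of these letters and not a binding site.

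The 4 windows that follow are shown because Fam151a and Prss53 gave the widest separation from glucagon cells and the pair of windows from chromosome 2 both hold the Maf core. Each is written 5′ to 3′ along the gene, with capitals at matches other than CANNTG. In that of Spc25 (chr2:69206164-69206463, minus strand) TCAGCA, the reverse complement of the Maf core, begins 128 bases before the start. In that of Dapl1 (chr2:59484403-59484702, plus strand) the same letters begin 65 bases and TATAAA 29 bases before it. In that of Fam151a (chr4:106733665-106733964, plus strand) CAGATG begins 1 base before the start. In that of Prss53 (chr7:127890921-127891220, minus strand), which lies inside the annotated gene at a start of its own, TAATTA begins 206 bases before it.
Fam151a: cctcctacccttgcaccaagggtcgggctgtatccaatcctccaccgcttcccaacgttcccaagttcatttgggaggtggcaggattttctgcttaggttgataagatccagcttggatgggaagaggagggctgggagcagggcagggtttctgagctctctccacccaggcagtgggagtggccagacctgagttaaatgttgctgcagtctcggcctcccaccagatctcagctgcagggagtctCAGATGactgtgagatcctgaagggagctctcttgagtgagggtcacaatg
Prss53: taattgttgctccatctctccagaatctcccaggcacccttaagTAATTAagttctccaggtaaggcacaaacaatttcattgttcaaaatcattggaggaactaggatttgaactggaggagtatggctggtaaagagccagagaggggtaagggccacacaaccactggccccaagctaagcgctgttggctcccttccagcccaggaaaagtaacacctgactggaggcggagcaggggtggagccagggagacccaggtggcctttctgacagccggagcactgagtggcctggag
Spc25: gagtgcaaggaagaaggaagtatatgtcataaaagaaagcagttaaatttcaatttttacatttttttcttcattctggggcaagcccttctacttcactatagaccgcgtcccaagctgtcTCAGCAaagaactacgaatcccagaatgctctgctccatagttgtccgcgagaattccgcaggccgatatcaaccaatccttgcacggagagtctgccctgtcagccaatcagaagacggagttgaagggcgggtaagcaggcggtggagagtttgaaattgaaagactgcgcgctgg
Dapl1: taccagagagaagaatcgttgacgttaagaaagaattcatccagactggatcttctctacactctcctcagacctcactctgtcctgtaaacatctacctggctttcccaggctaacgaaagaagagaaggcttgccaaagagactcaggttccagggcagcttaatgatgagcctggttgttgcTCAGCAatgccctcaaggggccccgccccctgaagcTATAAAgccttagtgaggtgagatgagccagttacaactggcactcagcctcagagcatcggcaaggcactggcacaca

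Fam151a and Prss53 were close to absent outside insulin cells. Fam151a reached 1 RPKM in 339 of 395 insulin cells, or 85.8% (82.0 to 89.1, an exact Clopper-Pearson interval at 95% that covers counting error only), with a lowest value of 0, a median of 45.1 and a highest of 1281 RPKM. In glucagon cells it reached 1 RPKM in 1 of 33, and the lowest, median and highest values were 0, 0 and 1.39 RPKM. All 13 somatostatin cells were at 0, and the 11 PP cells ran from 0 to 1.17 RPKM with a median of 0. No cell of the 3 other groups came near the insulin median, but 34 insulin cells were also at 0, so the groups overlap at the low end.

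Prss53 was the more even of the pair. It reached 1 RPKM in 380 of 395 insulin cells (96.2%, 93.8 to 97.9), from 0 through a median of 84.9 to a highest of 1876 RPKM. Of the 33 glucagon cells 5 reached 1 RPKM, and their lowest, median and highest values were 0, 0 and 4.45 RPKM. Somatostatin cells had a median of 0 and a highest value of 0.634 RPKM, and PP cells a median of 0 and a highest value of 0.824 RPKM. None of these cells reached 10 RPKM, a level that 352 insulin cells passed.

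Papss2 had the highest mean of the 8 in insulin cells, on the RPKM scale, which corrects for transcript length. It reached 1 RPKM in 383 of 395 insulin cells (97.0%, 94.8 to 98.4), from 0 through a median of 145 to a highest of 977 RPKM. In glucagon cells 18 of 33 reached 1 RPKM, with a lowest value of 0, a median of 1.53 and a highest of 229 RPKM. In somatostatin cells the median was 0.219 and the highest value 12.9 RPKM, and in PP cells they were 0.126 and 5.36 RPKM. Of the 33 glucagon cells 8 reached 10 RPKM, and 2 exceeded the insulin median. These 8 cells had a median insulin share of hormone RNA of 0.280%, against 0.371% in the glucagon cells under 10 RPKM, and for Ociad2 the same medians were 0.403% and 0.323%. The part of insulin cell RNA in these levels was not tested.

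Spc25 and Ociad2 separated insulin cells from somatostatin cells more than from glucagon cells. Spc25 reached 1 RPKM in 316 of 395 insulin cells (80.0%, 75.7 to 83.8), from 0 through a median of 50.7 to a highest of 1269.7 RPKM. It reached 1 RPKM in 23 of 33 glucagon cells, with a median of 13.7 and a highest value of 654 RPKM. Somatostatin cells ran from 0 to 0.894 RPKM and PP cells from 0 to 2.91 RPKM, both with a median of 0. In 10 glucagon cells Spc25 exceeded the insulin median. Its mean was 110.0 RPKM in insulin cells, against 90.9 RPKM in glucagon cells and 114 RPKM in the 22 of them with glucagon at 99% of hormone RNA.

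Ociad2 reached 1 RPKM in 350 of 395 insulin cells (88.6%, 85.1 to 91.6), with a median of 55.7 and a highest value of 1009.5 RPKM. In glucagon cells 25 of 33 reached it, with a median of 10.4 and a highest value of 283 RPKM. No somatostatin cell exceeded 0.531 RPKM, while 6 of 11 PP cells reached 1 RPKM, with a median of 3.05 and a highest value of 198 RPKM. Ociad2 was thus shared with both glucagon and PP cells, and only the somatostatin cells lay wholly under 1 RPKM.

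Dapl1 and Car15 were the most uneven of the 8 among insulin cells. Adh1 varied about as much as Fam151a and Spc25 over the pooled columns. Dapl1 reached 1 RPKM in 214 of 395 insulin cells (54.2%, 49.1 to 59.2), with 174 cells at 0, a median of 2.27 and a highest value of 3637 RPKM. It reached 1 RPKM in 9 of 33 glucagon cells, the highest at 205 RPKM, in no somatostatin cell (all 13 at 0) and in 2 of 11 PP cells, the highest at 3.34 RPKM. The upper 10% of insulin cells held 67.5% of its summed RPKM, and a single cell held 12.0%. Adh1 reached 1 RPKM in 301 insulin cells (76.2%, 71.7 to 80.3), with a median of 55.8 and a highest value of 1725 RPKM. It was at 1 RPKM in 14 glucagon cells (median 0.548, highest 524 RPKM), in 1 somatostatin cell (1.08 RPKM) and in 7 of 11 PP cells (median 3.13, highest 377 RPKM). Of the PP cells 5 exceeded the insulin median for Adh1. Car15 reached 1 RPKM in 228 insulin cells (57.7%, 52.7 to 62.6), with 113 at 0, a median of 3.68 and a highest value of 1787 RPKM. Only 1 cell reached 1 RPKM in each of the other groups, with highest values of 1.96 RPKM in glucagon, 5.11 in somatostatin and 2.89 in PP cells.

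**Figure D1:**
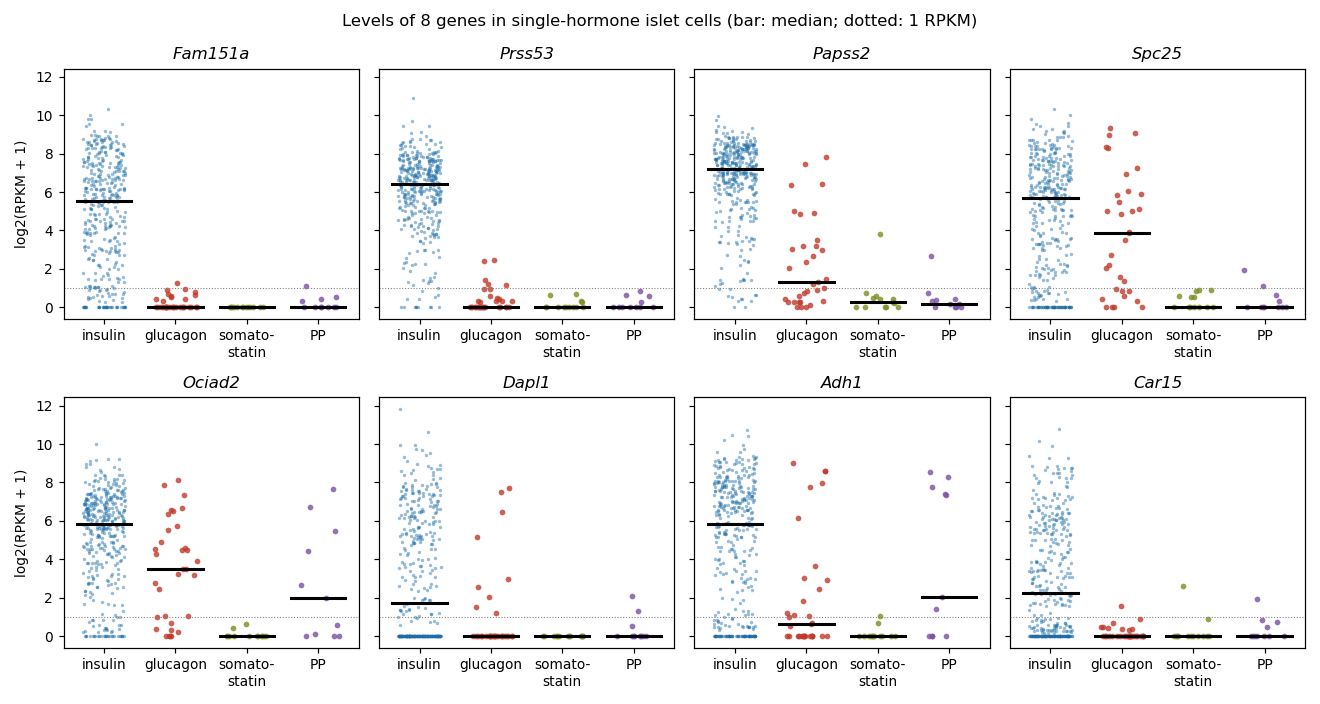
Level of each of the 8 genes as log2(RPKM + 1) in every insulin (n = 395), glucagon (33), somatostatin (13) and PP cell (11). Points are cells, bars are medians and the dotted line marks 1 RPKM. Fam151a and Prss53 have medians of 45.1 and 84.9 RPKM in insulin cells and 0 in the other groups, while Spc25 and Ociad2 spread through the glucagon cells and Adh1 through the PP cells.

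The coefficient of variation over insulin cells ordered the genes from Papss2 (0.841) through Prss53 (1.21), Ociad2 (1.26), Fam151a (1.47), Spc25 (1.49), Adh1 (1.52) and Car15 (2.67) to Dapl1 (3.10). Fam151a, Spc25 and Adh1 are neighbours in this order that hardly differ over the pooled columns. In the rounded columns alone the values were 2.20 for Fam151a, 2.09 for Adh1 and 1.64 for Spc25. In the full-precision columns Car15 (2.37) stood above Dapl1 (2.00). In the cells that reached 1 RPKM, the median level was 58.9 RPKM for Dapl1 and 38.9 RPKM for Car15, against 66.8 RPKM for Fam151a and 149 RPKM for Papss2. The low overall medians of Dapl1 and Car15 thus came with many cells at or near 0. Each of the 8 genes reached 1 RPKM in a higher share of the 226 full-precision than of the 169 rounded insulin cells. The gap was widest for Car15, at 72.1% (65.8 to 77.9) of full-precision and 38.5% (31.1 to 46.2) of rounded cells, with medians of 11.6 and 0.238 RPKM. Adh1 followed with 89.8% (85.1 to 93.4) and 58.0% (50.2 to 65.5) and medians of 103 and 6.81 RPKM, and Ociad2 with 96.9% (93.7 to 98.7) and 77.5% (70.5 to 83.6). For Fam151a the shares were 92.5% (88.2 to 95.6) and 76.9% (69.8 to 83.0), and for Dapl1 60.6% (53.9 to 67.0) and 45.6% (37.9 to 53.4). Prss53 differed least, with 97.8% and 94.1%. With each cell thinned to 250000 reads, 82.6% of insulin cells and 15.6% of glucagon cells held a Fam151a read, while no somatostatin cell and 9.09% of PP cells did. At that depth 1 read is worth more than 1 RPKM for each of the 8 genes, so low levels count as detected there.

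As classifiers of insulin cells, Fam151a, Prss53 and Papss2 had an area under the ROC curve (AUC) past 0.9 against each of the other 3 groups over the pooled columns. The AUC is the chance that an insulin cell drawn at random has more RPKM of the gene than a cell of the other group, with ties split evenly. Every gene whose mean reached 5 RPKM in one group or the other was tested. Against glucagon cells 3 of the 8 reached an AUC of 0.9 (0.345% of 7527 genes tested did). Against somatostatin cells 4 of the 8 did (0.317% of 7890), and against PP cells 3 of the 8 (0.467% of 7703). These contrasts chose the genes, so nothing is read from the counts. With cells thinned to 250000 reads, 1 of the 8 reached 0.9 against glucagon cells. In the rounded columns Papss2 stood at 0.898 against glucagon cells and Fam151a at 0.851 against PP cells, both under 0.9, beside 0.908 and 0.974 in full-precision columns. In the full-precision columns Adh1 against somatostatin cells (0.948) and Spc25 against PP cells (0.912) were past it, beside 0.820 and 0.831 in the rounded ones.

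Prss53 had the highest AUC of the 8 against glucagon and somatostatin cells and came after Papss2 against PP cells, with AUCs of 0.977 against glucagon, 0.984 against somatostatin and 0.982 against PP cells, ranks 6, 5 and 9 among all genes tested. Fam151a gave 0.932, 0.957 and 0.930 (ranks 15, 12 and 23) and Papss2 0.901, 0.983 and 0.987 (ranks 26, 6 and 8), in the same order of groups. Of 20 genes well known from beta cells, 11 of the 19 tested reached 0.9 against glucagon cells, 9 of 18 against somatostatin and 11 of 18 against PP cells. These counts include Ins1 and Ins2, which set the groups, so their AUCs of 0.996 to 0.999 were fixed by the grouping. Among the 20 the peptide gene Ucn3 gave 0.988, 0.994 and 0.993, the prolactin receptor Prlr 0.983, 0.978 and 0.988, and Slc2a2 0.929, 0.957 and 0.947. Prss53 thus stood above Slc2a2 and below Ucn3 in all 3 contrasts. The transcription factor genes Pdx1 (0.794, 0.701 and 0.780) and Nkx6-1 (0.846, 0.833 and 0.788), which define beta cells by their function, stood below Prss53, Fam151a and Papss2, at mean levels of 11.2 and 11.8 RPKM in insulin cells. The zinc transporter gene Slc30a8 reached 0.965 against somatostatin and 0.972 against PP cells and 0.314 against glucagon cells, with means of 449.9 RPKM in insulin and 719 RPKM in glucagon cells.

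Of the other 5 genes Ociad2 alone reached 0.9, in 1 contrast, over the pooled columns. It gave 0.959 against somatostatin cells, 0.738 against PP and 0.685 against glucagon cells. Spc25 gave 0.877 against somatostatin, 0.882 against PP and 0.584 against glucagon cells, rank 1979 of 7527. Adh1 gave 0.892 against somatostatin and 0.721 against glucagon cells. Against PP cells Adh1 gave 0.563, with 0.732 in full-precision and 0.360 in rounded columns, on either side of 0.5. Car15 gave 0.796, 0.807 and 0.760 against glucagon, somatostatin and PP cells, and Dapl1 0.664, 0.780 and 0.710. Against PP cells Car15 gave 0.853 in full-precision and 0.627 in rounded columns, and Dapl1 0.810 and 0.557. For Car15 the limit lay in the insulin cells, of which 113 were at 0, and not in the other groups, whose means were under 0.5 RPKM.

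**Figure D2:**
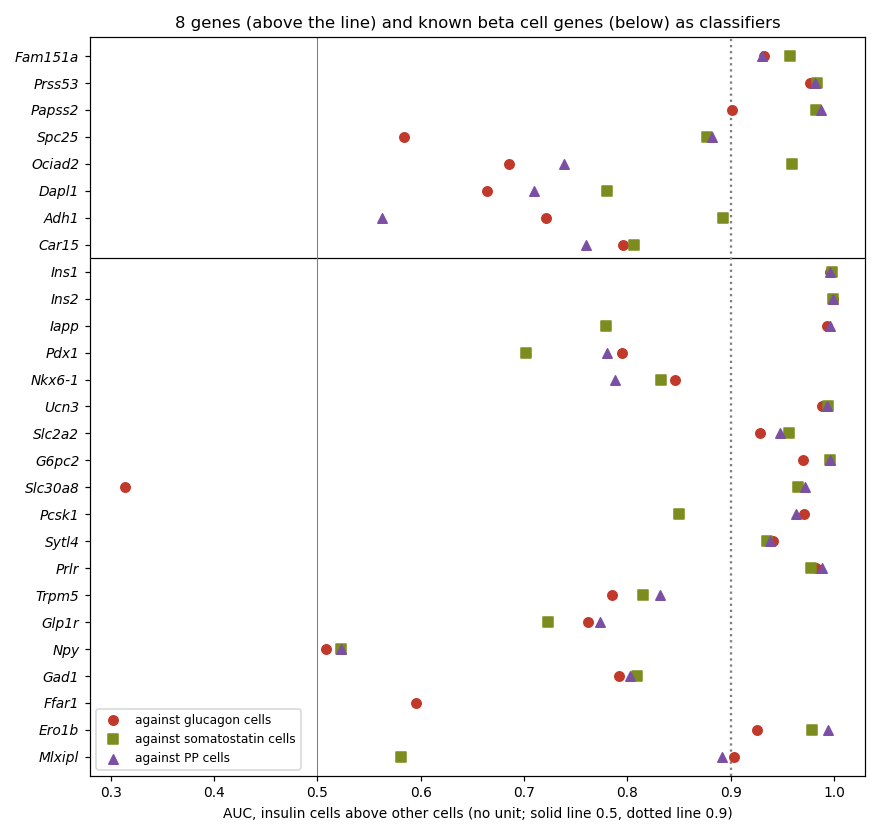
AUC for insulin cells above glucagon (red circles), somatostatin (green squares) and PP cells (purple triangles), for the 8 genes above the line and known beta cell genes below it. The horizontal axis is the AUC, without unit, with a solid line at 0.5 and a dotted line at 0.9. Prss53, at 0.977 to 0.984, lies beside Ucn3 and Prlr, while Spc25 spans 0.584 to 0.882.

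Ratios of mean levels gave another order. The log2 ratio of means, with 1 RPKM added to each, was 6.58 for Fam151a, 6.30 for Prss53, 5.63 for Car15, 2.96 for Papss2, 2.20 for Dapl1, 1.32 for Adh1, 1.12 for Ociad2 and 0.27 for Spc25 in insulin against glucagon cells. Means were thus at least 4 times higher for 5 of the 8 (6.44% of all genes tested were). For Spc25 the ratio was 1.14 in full-precision and -0.21 in rounded columns. For Dapl1 it was 4.40 and 1.31, so in the rounded columns alone Dapl1 did not reach 4 times. Against somatostatin cells all 8 were past 4 times (10.6% of genes), from 5.31 for Car15 to 6.98 for Adh1. Against PP cells 6 of the 8 were (12.8%), all but Ociad2 at 1.37 and Adh1 at 0.34. The median over the 8 was 2.58, 6.41 and 5.99 against glucagon, somatostatin and PP cells, beside 0.14, -0.20 and 0.17 over all genes tested.

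The 8 genes were also counted per cell, as a description only, since they were picked for their level in insulin cells. Insulin cells held a median of 7 of the 8 at 1 RPKM, and 378 of 395 (95.7%, 93.2 to 97.5) held at least 4. All 8 were present in 93 insulin cells, 76 of them in full-precision and 17 in rounded columns. Glucagon cells held a median of 3, and 8 of 33 (24.2%, 11.1 to 42.3) held at least 4, 7 of 17 in full-precision and 1 of 16 in rounded columns. PP cells held a median of 2, with 2 of 11 at 4 or more. Somatostatin cells held a median of 0, and 0 of 13 reached 4, which by the limit of 3 counts allows a share of up to 23.1%. The groups also differed in detected genes of any kind, with medians of 5259 in insulin, 4576 in glucagon, 4371 in somatostatin and 3798 in PP cells. The part of this in the counts was not tested. The 4 insulin cells with at most 1 of the 8 had a median of 32.6% of their RPKM in mitochondrial genes, against 11.0% in the other 391, and 2426.5 against 5276 detected genes. Of these 4 cells 2 had less than 10000 RPKM of hormone RNA in all. The part of cell quality in their low count was not tested.

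Dual cells with insulin resembled insulin cells in this count. The 64 insulin-glucagon cells held a median of 7 of the 8, and 62 (96.9%, 89.2 to 99.6) held at least 4. The 18 insulin-PP cells held a median of 7 with 17 at 4 or more, and the 19 insulin-somatostatin cells a median of 6 with 16 at 4 or more. Dual cells without insulin did not, since the 16 somatostatin-PP cells held a median of 0 with 1 at 4 or more and the 8 glucagon-PP cells a median of 3 with 3 at 4 or more. Median detected genes were 5918 in insulin-glucagon, 6076 in insulin-somatostatin and 5931.5 in insulin-PP cells. They were 3614.5 in somatostatin-PP and 5394 in glucagon-PP cells, and the part of this in the counts was not tested. The single cell with glucagon and somatostatin is not described. Whether a dual cell is 1 cell or a capture of 2 cannot be told apart here.

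**Figure D3:**
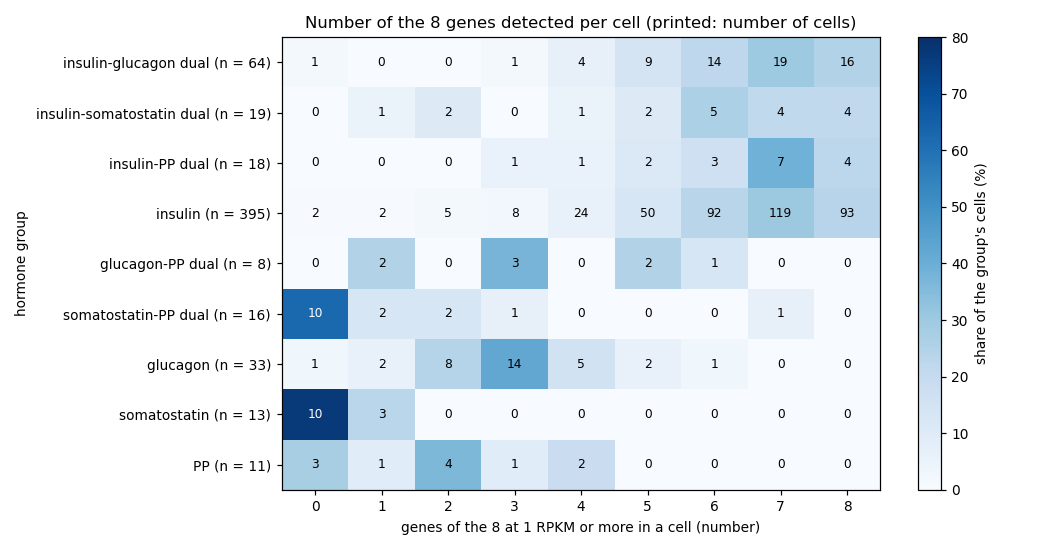
Number of the 8 genes at 1 RPKM or more per cell (horizontal axis) for each hormone group (rows). The printed figures are numbers of cells and the colour is the share of the group's cells in percent. The 3 dual groups with insulin crowd at 5 to 8 genes like the 395 insulin cells, while 10 of 16 somatostatin-PP and 10 of 13 somatostatin cells hold none.

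In the 64 insulin-glucagon cells the mean levels of Fam151a, Prss53 and Papss2 lay between those of both single-hormone groups. Insulin led in 46 of these cells and glucagon in 18. Fam151a had a mean of 52.2 RPKM in the dual cells, against 115 RPKM in insulin and 0.213 RPKM in glucagon cells. Prss53 had 52.1 RPKM, against 119 and 0.526 RPKM, and Papss2 had 87.0 RPKM, against 177 and 21.9 RPKM. The log2 ratio of means plus 1 in dual over insulin cells was -1.12 for Fam151a, -1.18 for Prss53 and -1.02 for Papss2. A mean of both single-hormone groups weighted by each dual cell's insulin share would be 70.6 RPKM for Fam151a, 73.5 for Prss53 and 117 for Papss2, and each observed mean lay under it. With insulin leading, mean Prss53 was 57.6 RPKM, and with glucagon leading 38.2 RPKM. The same means were 59.6 and 33.4 RPKM for Fam151a and 102 and 48.0 RPKM for Papss2.

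The remaining genes differed less between dual cells and insulin cells. Mean Spc25 was 83.1 RPKM in the dual cells, against 110.0 in insulin and 90.9 in glucagon cells. Mean Ociad2 was 59.7 RPKM, against 89.4 and 40.6, mean Dapl1 49.4, against 77.0 and 15.9, mean Adh1 93.1, against 142 and 56.6, and mean Car15 38.6, against 56.7 and 0.167 RPKM. For Ociad2 and Car15 the cells led by glucagon had the higher means, 74.9 and 59.8 RPKM, against 53.7 and 30.3 RPKM in those led by insulin. For Ociad2 the medians hardly differed, at 36.8 RPKM with glucagon and 37.3 RPKM with insulin leading. A single cell held 34.5% of the summed Car15 RPKM of the dual cells. Spearman's rho between a gene's level and the insulin share over the 64 cells was 0.29 for Prss53, 0.26 for Fam151a, 0.16 for Papss2 and -0.20 for Car15, beside 0.68 for Ins2, which is itself part of that share. In dual cells against glucagon cells 0.185% of 7567 genes had an AUC of 0.9, among them Prss53 at 0.952, while Fam151a stood at 0.876 and Papss2 at 0.852. A mean at least 4 times higher was found for 5.87% of genes, with log2 ratios of 5.46 for Fam151a, 5.12 for Prss53 and 5.09 for Car15 past it and 1.94 for Papss2 just short of it.

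**Figure D4:**
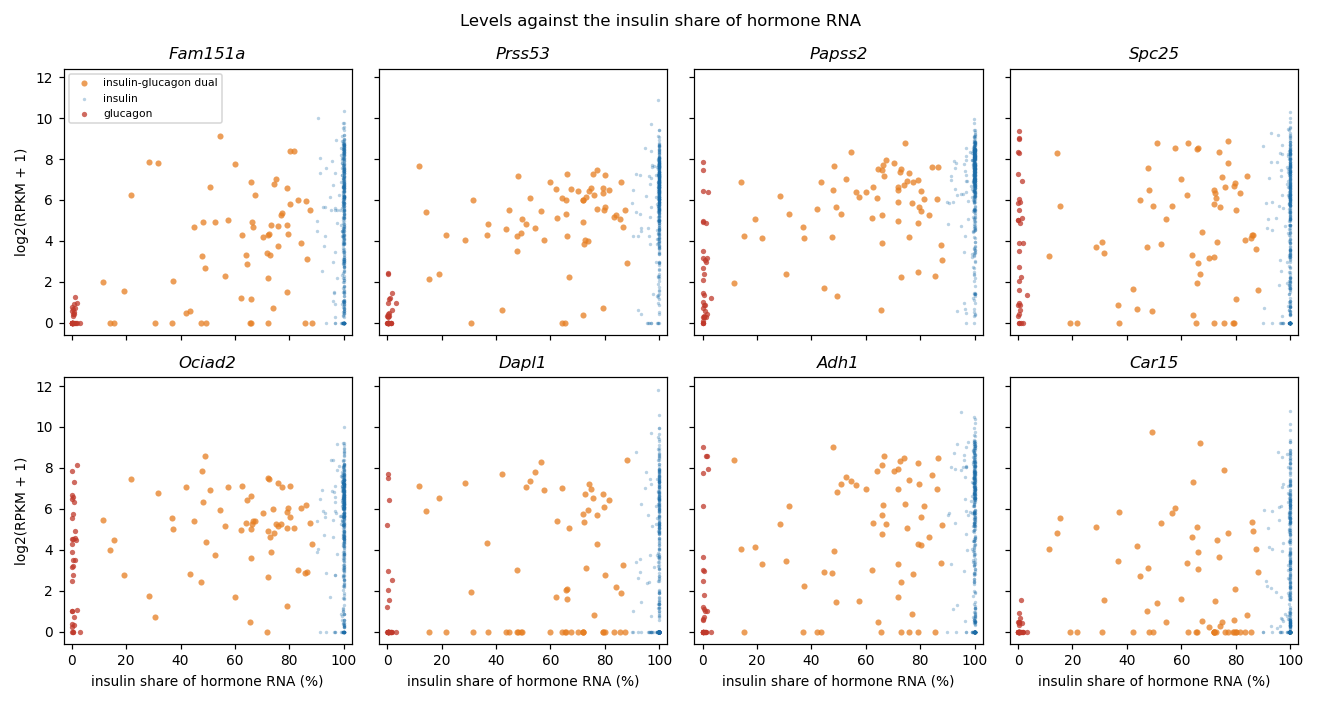
Level of each of the 8 genes as log2(RPKM + 1) against the insulin share of hormone RNA in percent, for insulin-glucagon dual cells (orange, n = 64), insulin cells (blue, 395) and glucagon cells (red, 33). Prss53 and Papss2 are present across the whole range of dual cells, in 58 and 63 of 64 at 1 RPKM, including cells in which glucagon leads.

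The smaller dual groups with insulin held these genes as well. In the 19 insulin-somatostatin cells mean Fam151a was 71.5, Prss53 58.1 and Papss2 89.4 RPKM, against 0, 0.127 and 1.21 RPKM in somatostatin cells. With somatostatin leading (4 cells) 1 cell held Prss53 at 1 RPKM and 3 held Papss2. In the 18 insulin-PP cells these means were 72.3, 55.6 and 111 RPKM, against 0.204, 0.192 and 0.657 RPKM in PP cells. Car15 departed from the rest, with a mean of 217 RPKM in insulin-PP cells, against 56.7 RPKM in insulin and 0.430 RPKM in PP cells, a log2 ratio of 1.92 over insulin cells. Its median there was 5.56 RPKM, against 3.68 RPKM in insulin cells, and 1 cell at 1015 RPKM held 26.0% of the sum. The mean was 328 RPKM in the 11 full-precision and 42.2 RPKM in the 7 rounded cells. In the 16 somatostatin-PP cells the means of Fam151a (6.78 RPKM), Prss53 (6.68) and Car15 (6.69) each came mostly from 1 cell, which held 97.5%, 98.2% and 98.4% of the sums. Papss2 reached 1 RPKM in 5 of the 16, 4 of 6 in full-precision and 1 of 10 in rounded columns, with a mean of 14.8 RPKM. In the 8 glucagon-PP cells mean Spc25 was 102, Papss2 41.8 and Ociad2 40.0 RPKM, and 1 cell held 77.6% of the Papss2 sum. The means of the other genes there were under 10 RPKM.

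Among insulin cells few pairs of the 8 genes went together. Spearman's rho was computed within each column set (226 and 169 cells), since the sets differ in depth. Of the 28 pairs, only Fam151a with Prss53 (0.31 in full-precision and 0.24 in rounded columns) and Prss53 with Papss2 (0.29 and 0.28) reached 0.2 in both sets. The median over the pairs was 0.07 in full-precision and 0.15 in rounded columns, and 19 of 28 were above 0 in both. Dapl1 and Adh1 had the lowest value in the full-precision columns, -0.12, with -0.03 in the rounded ones. The labels do not say which cells shared a chip, and values of 1 cell share its depth and amplification. The number of detected genes went with the level of Ociad2 at 0.40, Spc25 at 0.37, Dapl1 at 0.36 and Adh1 at 0.36 in the rounded columns, against 0.11 to 0.21 for these genes in the full-precision ones. With detected genes taken out, rho was 0.31 and 0.22 for Fam151a with Prss53 and 0.29 and 0.24 for Prss53 with Papss2.

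**Figure D5:**
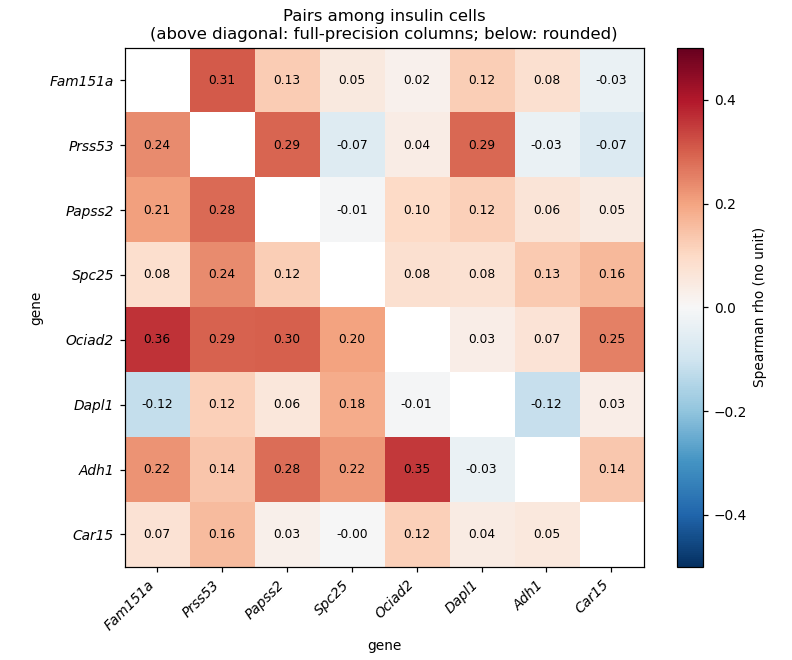
Spearman's rho between the 8 genes over insulin cells, with the 226 full-precision cells above the diagonal and the 169 rounded cells below it. Colour runs from blue (-0.5) through white (0) to red (0.5). Prss53 is paired at 0.24 to 0.31 with Fam151a and Papss2 in both sets, and most other pairs lie near 0 in at least one set.

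The genes most like each of the 8 were those with the highest rho in both sets, among 3769 genes at 1 RPKM in at least 50% of insulin cells. For Prss53 they were the convertase Pcsk2 (0.39 in full-precision and 0.47 in rounded columns), the glucose-6-phosphatase G6pc2 (0.37 and 0.35), the convertase Pcsk1 (0.35 and 0.33), the COPII coat GTPase Sar1b (0.30 and 0.35) and the carboxypeptidase Cpe (0.37 and 0.29). With detected genes taken out Pcsk2 stayed at 0.39 and 0.44. Fam151a also went with Pcsk2 (0.36 and 0.29), then with the phosphatase Bpnt1 (0.24 and 0.25), Prps1, Ece1 and the granule chaperone Scg5 (0.29 and 0.21). Pcsk2 was not particular to insulin cells in level, with means of 452 RPKM in insulin cells and 631 RPKM in glucagon cells. Papss2 went with the G protein subunit Gng12 (0.30 and 0.37), the disulfide oxidase Ero1b (0.27 and 0.32), Cpe (0.26 and 0.34), Slc2a2 (0.26 and 0.27) and the thyroid hormone carrier Ttr (0.24 and 0.45). Bpnt1, which breaks down the spent product of the sulfate donor that Papss2 makes, was not among the first 5 for Papss2.

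Dapl1 went, among others, with Pcsk1 (0.36 and 0.32), Gng12 (0.35 and 0.29), the translocon-associated Ssr4 (0.28 and 0.33) and Akap13 (0.29 and 0.28). Spc25 went with Mrfap1 (0.35 and 0.35), the ubiquitin-activating enzyme Uba1, Atp5pb, Ptges3 and Cd164 (0.25 to 0.30). Ociad2 was led by the palmitoyltransferase Zdhhc2 (0.31 and 0.29), Adh1 by Dnajc24 (0.22 and 0.24) and Car15 by the ubiquitin ligase Ube3c (0.27 and 0.21). With detected genes taken out, rounded columns gave 0.190 (Gng12) to 0.134 (Akap13) for these partners of Dapl1. For those of Spc25 they gave 0.213 (Mrfap1) to 0.113 (Ptges3). Zdhhc2 was then at 0.174, Dnajc24 at 0.111 and Ube3c at 0.193. In the full-precision columns all of these stayed past 0.2. The number of genes at 0.2 in both sets was 64 for Spc25 (1.7% of those tested), 48 for Dapl1 (1.27%), 27 each for Prss53 and Papss2 (0.716%), 18 for Ociad2 (0.478%), 5 each for Fam151a and Car15 (0.133%) and 4 for Adh1 (0.106%). With the number of detected genes taken out it was 5 for Spc25, 4 for Dapl1, 9 for Papss2, 3 for Fam151a, 1 for Ociad2 and 0 for Adh1 and Car15. The associations are weak and describe these cells. All 8 correlated below 0 with the mitochondrial share of RPKM in both sets, from -0.35 for Prss53 in the rounded columns to -0.05 for Ociad2 in the full-precision ones. The same values over all genes were not computed, so this is not read as a trait of the 8.

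Neighbouring genes matter because the sources used here do not state whether reads were counted by strand. Fam151a overlaps Acot11, a thioesterase gene on the other strand, by 3738 bases, and Mroh7 by 2620 bases. Acot11 had a mean of 5.84 RPKM in insulin cells and 0.0265 RPKM in glucagon cells and correlated with Fam151a at 0.13 and 0.33. Reads of the overlap cannot be told apart. Prss53 overlaps Zfp646 by 553 bases on the other strand, and Zfp646 was low, with a mean of 2.31 RPKM in insulin cells and 2.82 RPKM in glucagon cells. Vkorc1, the vitamin K epoxide reductase gene, lies 97 bases from Prss53 on the same strand. It had means of 155 RPKM in insulin, 81.2 in glucagon, 105 in somatostatin and 127 RPKM in PP cells, so the absence of Prss53 from the other groups was not shared by its neighbour.

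Spc25 lies 4859 bases from G6pc2, the gene of the islet glucose-6-phosphatase, on opposite strands with their starts facing each other. G6pc2 had means of 1040.1 RPKM in insulin, 43.5 in glucagon, 2.63 in somatostatin and 2.49 RPKM in PP cells, and was at 1 RPKM in all 395 insulin cells. Spc25 shared its low level in somatostatin and PP cells but not its drop in glucagon cells, where Spc25 had a mean of 90.9 RPKM. Over insulin cells both genes correlated at 0.10 and 0.38 in the column sets. On the other side of Spc25, Nostrin had means of 5.55 RPKM in insulin and 34.2 RPKM in glucagon cells. Car15 lies 256 bases from the long non-coding RNA gene B830017H08Rik on the other strand, whose means were 89.2 RPKM in insulin, 0.167 in glucagon, 13.1 in somatostatin and 6.23 RPKM in PP cells. Both were at 1 RPKM in 209 insulin cells, Car15 alone in 19, the non-coding RNA alone in 133 and neither in 34, and their rho was 0.04 and 0.14. The other neighbours within 10 kb were Zfp668, Gm36492, Atad1, Ociad1, Gm34496 and Dgcr2, with means from 0.000888 to 30.9 RPKM in insulin cells, while Gm39831 and Gm40156 had no row of their own.

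Relatives and pathway partners of the 8 are described by level, in lists that hold the 8 genes themselves. Of all genes tested, 6.44% had a mean at least 4 times higher in insulin than in glucagon cells. The same share was 10.6% against somatostatin and 12.8% against PP cells. Of 30 genes of the kinetochore and mitosis list, Spc25 included, 4 had a mean of at least 5 RPKM in insulin or glucagon cells and none of these differed 4 times (median log2 ratio 0.14, beside 0.14 over all genes tested). The partners of Spc25 in the NDC80 complex were nearly undetected, with Spc24 at 1 RPKM in 27, Ndc80 in 5 and Nuf2 in 5 of the 395 insulin cells, against 316 for Spc25. The proliferation gene Mki67 reached 1 RPKM in 8 and Top2a in 8 insulin cells. Zwint, whose product also sits at the kinetochore, had means of 56.9 RPKM in insulin, 56.4 in glucagon, 69.2 in somatostatin and 121 RPKM in PP cells. Spc25 RNA was thus found in cells in which that of its partners was nearly undetected.

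Of 30 sulfate activation and transfer genes, Papss2 included, 12 passed the level filter against glucagon cells, with 3 at least 4 times higher and 1 lower (median 0.62, beside 0.14 over all genes tested). The second synthase, Papss1, had means of 21.2 RPKM in insulin, 6.19 in glucagon, 9.57 in somatostatin and 42.7 RPKM in PP cells, well under the 177 RPKM of Papss2 in insulin cells. Chst11, a chondroitin sulfotransferase, had 18.7 RPKM in insulin and 3.47 RPKM in glucagon cells, and the tyrosylprotein sulfotransferase Tpst1 5.19 RPKM in insulin and 29.9 RPKM in glucagon cells. Of 16 carbonic anhydrase genes only Car15, Car10 and Car8 passed the filter against glucagon cells, with 2 higher and none lower. Car10 had 12.1 RPKM in insulin and 0.119 RPKM in glucagon cells, and Car8 9.98 RPKM in insulin, 33.1 in glucagon and 63.6 RPKM in somatostatin cells. Both are carbonic anhydrase relatives known to lack enzyme activity. Car2 was at 1 RPKM in 2 insulin cells and Car4 was listed at 0 in every cell of the 4 groups.

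Of 35 alcohol and retinoid dehydrogenase genes, Adh1 included, 10 passed the filter against glucagon cells, with none at least 4 times higher and 1 lower (median 0.16). Adh5, the formaldehyde-clearing relative, had means of 35.8 RPKM in insulin, 10.4 in glucagon, 84.2 in somatostatin and 149 RPKM in PP cells. The retinol carrier Rbp4 was the 1 lower, with 14.5 RPKM in insulin, 226 in glucagon and 2875 RPKM in somatostatin cells. Of 16 OCIA domain and gamma-secretase genes 11 passed, with 1 higher (median 0.39). That gene was the protease Bace2, at 76.8 RPKM in insulin and 2.09 RPKM in glucagon cells, while Ociad1 had 22.0 and 12.3 RPKM in these groups. Dap, the relative of Dapl1, had means of 237 RPKM in insulin, 147 in glucagon, 25.6 in somatostatin and 141 RPKM in PP cells, and Fam151b, the relative of Fam151a, 0.175 RPKM in insulin and 0.0142 RPKM in glucagon cells. Of 31 trypsin-like protease genes 4 passed against glucagon cells, with 2 higher, Prss53 and Tmprss4 (13.6 RPKM in insulin and 0.0116 RPKM in glucagon cells), and 1 lower. That was Cela1, an elastase gene of acinar cells, with 0.943 RPKM in insulin, 6.94 in glucagon and 339 RPKM in somatostatin cells. The kinetochore, sulfate, carbonic anhydrase, dehydrogenase, OCIA and protease lists were also compared with the smaller groups, in that order. Against somatostatin cells 2 of 6, 2 of 14, 2 of 3, 2 of 11, 2 of 11 and 2 of 5 were at least 4 times higher. Lower were 1, 0, 1, 3, 1 and 2. Against PP cells 2 of 6, 4 of 15, 3 of 3, 1 of 12, 1 of 12 and 2 of 6 were higher. Lower were 1, 1, 0, 4, 0 and 2. These lists are small, and none was tested.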

How the data were processed

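RNA was measured in 622 single islet cells with 1 library each. The authors deposited 1 table of RPKM values for 44448 Entrez gene IDs, of which 39725 matched the RefSeq table of GRCm38. Per the labels' protocols, cDNA came from the SMARTer kit and libraries from Nextera XT. CASAVA 1.8.2, FastQC and GRCm38 are named in the submitters' processing notes, without the aligner, counter or strand setting (not given in the sources used here). Whole reads were recovered from RPKM through mitochondrial gene lengths for every cell, and 100% of the 8 genes' values came out whole within 0.05. Recovered reads served for depth and thinning only, and no count model was used. Medians of 1119227 reads per cell limit precision at low levels.

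The members and lists were chosen with earlier results of these data known. Cells are not replicates, so there is no test, and shares carry Clopper-Pearson intervals at 95%, with an upper limit of 3 counts where a count is 0. Ratios are log2((mean + 1)/(mean + 1)), over genes whose mean reached 5 RPKM in one group or the other. Named genes were the 8 members, annotated neighbours within 10 kb, the 5 genes most like each member (1 is not reported here), known beta cell genes and list genes of at least 5 RPKM. List genes under that level (complex partners, Mki67, Top2a, Car2, Car4 and Fam151b) were named after their values were seen. The near-identical and marker-rich cells left out as alternatives were also chosen after the data were seen. Dual cells were kept apart from the single-hormone groups and no doublet caller was run. Python 3.11.15, pandas 2.3.3 and scipy 1.17.1 were used. The purity, cell filter, column set, depth, pseudocount and detection alternatives are given below.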

Additional observations from a re-analysis of the deposited data

How the results depend on the processing

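Of 206 alternative values of the counts and medians reported, 162 stayed near the main value and 44 moved. Counts of the 8 with means at least 4 times higher ran from 4 to 5 against glucagon (main 5), stayed at 8 against somatostatin and ran from 5 to 7 against PP cells (main 6). The AUC count of 3 against glucagon cells was 1 after thinning to 250000 reads and 2 at 99% and 75% purity, with mitochondrial shares of at most 20% and in the rounded columns. Against PP cells it ran from 2 to 4 (main 3). Against somatostatin cells it ran from 4 to 6 (main 4), with 6 at 99% purity, where 1 somatostatin cell remains. The median number of the 8 genes in somatostatin cells, 0, was 0.5 in the full-precision columns, 1 after thinning and 1 with detection above 0 RPKM, and in PP cells, 2, it was 4 with detection above 0 RPKM and 1 at 5 RPKM.

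Counts of genes correlated at 0.2 moved most. With Pearson's correlation of log2 values they were 13 for Fam151a, 98 for Prss53, 90 for Papss2, 139 for Spc25, 85 for Ociad2 and 3 for Car15. With detected genes taken out they were 3 for Fam151a, 9 for Papss2, 5 for Spc25, 1 for Ociad2, 4 for Dapl1, 0 for Adh1 and 0 for Car15. With mitochondrial shares of at most 20% they were 2 for Fam151a, 11 for Prss53, 5 for Papss2, 32 for Spc25, 5 for Ociad2, 25 for Dapl1 and 2 for Car15. With at least 2500 genes they were 9 for Prss53, 14 for Papss2, 8 for Spc25, 5 for Ociad2 and 3 for Car15. At 75% purity they were 17 for Papss2, 38 for Spc25, 10 for Ociad2, 2 for Adh1 and 2 for Car15, and at 99% purity 9 for Fam151a and 2 for Car15. With a hormone sum of at least 10000 RPKM they were 3 for Fam151a and 2 for Car15, and with no filter on genes 8 for Fam151a and 8 for Car15. Car15 had 2 without cells rich in other markers and 3 without the second near-identical cells. The cause was not tested.

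Of 32 shares of cells, 15 were lower in the rounded columns, 7 higher and 2 lower in the full-precision ones, 8 lower at 99% purity (where the shares rest on 22 glucagon, 1 somatostatin and 5 PP cells and 3 of them on that 1 cell), 3 lower with mitochondrial shares of at most 20%, 3 lower without cells rich in other markers, and none moved without the second near-identical cells. No paired analysis was possible because the cells form 1 group and no test was run. With 11 PP and 13 somatostatin cells, and no animal or chip named, these values describe the cells measured.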
